A study of Mus musculus with 48 samples.

Results

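V-J joints of the mouse immunoglobulin κ (Igκ) locus in which the bait end and the prey end shared 2 to 20 bp at the junction are described here, as microhomology (MH) joints. They were chosen by the alignments themselves, as rows of the junction lists on chromosome 6 from 67.5 to 70.66 Mb (NCBIM37, mm9), the Vκ region, whose bait and prey alignments overlapped in the read by 2 to 20 bp. This gave 543511 of 7265223 Vκ rows, or 7.48%, and 45437 distinct joints when each combination of bait end, prey end and strand was counted once in a library and the libraries were summed. Just outside the lower limit lay 946192 rows that shared 1 bp, and 5275047 rows were direct joints with neither an overlap nor a gap. No row shared 20 bp, and 1 row lay above the upper limit. The 1-bp rows of DMSO-treated WT cells made up 12.6, 12.4 and 12.1% of Vκ rows with the Jκ1 coding end (CE) bait, against 1.77, 1.79 and 1.78% at 2 bp. In DMSO-treated Ku70-/- cells the same shares were 38.6, 28.2 and 26.8% at 1 bp and 5.62, 10.3 and 10.2% at 2 bp. With the Jκ1 signal end (SE) bait, WT shares were 2.52, 2.99 and 3.02% at 1 bp and 0.477, 0.519 and 0.417% at 2 bp, and Ku70-/- shares were 16.7, 21.3 and 20.7% at 1 bp and 11.8, 9.71 and 10.4% at 2 bp.

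The joints came from HTGTS-JoinT-seq, a linear amplification assay that starts from one fixed broken end, the bait, and sequences whatever it was joined to, the prey. The cells were pro-B cells transformed with the Abelson kinase (vAbl), either WT or Ku70-/-, and the methods name 1 clone for each genotype. Cells were either cycling or arrested for 96 h with 3 µM STI-571, an Abl kinase inhibitor, together with DMSO, 5 µM L67 or 25 µM L82-G17. L67 is known as an inhibitor of DNA ligases 1 and 3, and L82-G17 as an inhibitor of DNA ligase 1. The 2 baits and 8 cell conditions gave 16 groups of 3 libraries each, 48 in all, with 8294 to 385847 junctions per library. The study describes its experiments as biological repeats, but the labels tie no library to a culture of its own, so p-values measure only the spread between libraries, part of which may be technical. Because each genotype is 1 clone, genotype and clone cannot be told apart. No Ku70 level is measured by the assay.

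When Abl kinase is inhibited, vAbl pro-B cells stop in G1 and express RAG1/2, which cut between a V or J gene segment and its recombination signal sequence. Each cut leaves a hairpin coding end and a blunt signal end that starts with the heptamer of the signal sequence. Ku70, with Ku80, holds DNA ends for classical nonhomologous end joining (C-NHEJ), which uses few or no shared bases. Without it, ends are resected and joined by alternative end joining (A-EJ), which is known for short microhomologies. A coding joint links 2 coding ends, a signal joint links 2 signal ends, and a hybrid joint links a coding end to a signal end. MH here denotes overlap between the 2 alignments and not the use of a pathway.

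The labels give no replicate numbers, so libraries of a group were numbered in the order in which they are listed. The same number with the 2 baits therefore does not show the same culture. Replicate 1 of DMSO-treated Ku70-/- cells stood apart from the other Ku70-/- libraries with both baits. It held 152 distinct MH joints with the CE bait and 211 with the SE bait, whereas replicates 2 and 3 held 2223 and 2094 (CE) and 2566 and 2274 (SE). Each of its distinct MH joints was read 73.1 times (CE) and 151 times (SE) on average. Main values of that group are therefore given with and without this library, and its other values include it. Cycling WT cells held 70, 57 and 67 distinct MH joints with the CE bait and 5, 10 and 16 with the SE bait, so that their composition rests on few joining events. Reads were not deduplicated, and intervals and shares cover counting of rows only.

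The sequences at the break showed what the MH joints shared. Both Jκ1 bait ends are printed 5′ to 3′ toward the break from NCBIM37, the CE on the minus strand (chr6:70672556-70672595) and the SE on the plus strand (chr6:70672516-70672555). Capitals mark the 4 bases at the coding end and the heptamer at the signal end.
Jκ1 coding end: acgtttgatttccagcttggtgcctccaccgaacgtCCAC
Jκ1 signal end: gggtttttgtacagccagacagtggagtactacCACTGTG

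One joint was the most frequent MH joint in each DMSO-treated WT CE library. It linked the untrimmed Jκ1 coding end to Igkv16-104 through a shared AC, with 2 bp missing from the Vκ coding end (chr6:68376043-68376064, minus strand, exon 2 of the gene). Igkv1-117 (chr6:68071794-68071815, minus strand) and Igkv1-110 (chr6:68221234-68221255, minus strand) joined through the same AC with 6 bp missing. In each of the following pairs the bait line holds 20 kept bases, the shared bases in capitals and the next 10 bases of the uncut sequence. The prey line holds the 10 bases that precede in the uncut sequence, the shared bases in capitals and 20 kept bases. At a break site, those of the 10 bases within the stated loss were lost, and any others lie across the cut. Coordinates cover the kept and shared bases.
Jκ1 coding end, untrimmed: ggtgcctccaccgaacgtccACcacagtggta
Igkv16-104 prey: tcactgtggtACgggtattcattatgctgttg
Igkv1-117 prey: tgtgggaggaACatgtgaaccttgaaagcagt
Igkv1-110 prey: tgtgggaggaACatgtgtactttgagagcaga
Igkv16-104 joint as read: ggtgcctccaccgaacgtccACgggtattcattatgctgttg

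In Ku70-/- cells with inhibitor, the most frequent CE combinations present in all 6 L67 and L82-G17 libraries used GT, 4 bp inside the Jκ1 coding end (chr6:70672560-70672581, minus strand). The 3 Vκ partners, chosen here after their values were seen, were Igkv12-46 (chr6:69714523-69714544), Igkv12-44 (chr6:69764631-69764652) and Igkv12-41 (chr6:69808420-69808441), all on the plus strand in exon 2 with 6 bp lost.
Jκ1 coding end, 4 bp trimmed: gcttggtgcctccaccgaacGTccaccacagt
Igkv12-46 prey: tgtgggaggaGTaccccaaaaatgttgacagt
Igkv12-44 prey: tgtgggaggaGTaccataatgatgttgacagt
Igkv12-41 prey: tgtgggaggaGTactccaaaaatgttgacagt

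In the SE pairs printed below the shared bases lay inside the Jκ1 heptamer, except in the Igkv12-44 pair. In Ku70-/- cells the Igkv4-50 signal end (chr6:69650738-69650760, minus strand) joined through CAC, with 4 bp lost from the bait and none from the prey. The CAC was the 3 bases of the prey heptamer at the cut and the 3 bases of the Jκ1 heptamer farthest from the cut. Igkv12-44 (chr6:69764633-69764654, plus strand), a coding end, joined in a hybrid joint with 20 bp lost from the bait. In WT cells the leading pair was Igkv6-32 (chr6:70023989-70024010, minus strand), whose signal end had lost its 7-bp heptamer. The next 2 WT pairs used TGT and reached the intron of Igkv15-103, of which the more frequent one over the 3 libraries is shown (chr6:68387594-68387616, plus strand).
Jκ1 signal end, 4 bp trimmed: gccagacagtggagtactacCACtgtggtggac
Igkv4-50 signal end prey: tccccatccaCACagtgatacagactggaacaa
Jκ1 signal end, 20 bp trimmed: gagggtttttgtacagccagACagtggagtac
Igkv12-44 prey: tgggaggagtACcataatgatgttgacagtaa
Jκ1 signal end, 3 bp trimmed: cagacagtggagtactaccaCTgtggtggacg
Igkv6-32 signal end prey: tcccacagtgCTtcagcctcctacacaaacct
Jκ1 signal end, 1 bp trimmed: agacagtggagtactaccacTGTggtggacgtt
Igkv15-103 intron prey: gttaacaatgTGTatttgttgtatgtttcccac

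The share of Vκ rows that were MH joints was far higher in Ku70-/- than in WT cells with either bait. In DMSO-treated cells with the CE bait, the 3 WT libraries held 2.10, 2.09 and 2.10% and the 3 Ku70-/- libraries 11.6, 17.4 and 17.4%. The groups did not overlap, and the difference of the means was 13.4 percentage points, or 15.3 without Ku70-/- replicate 1. SE bait libraries of WT cells held 0.991, 1.06 and 0.860% and the Ku70-/- libraries 22.4, 20.6 and 20.7%, a difference of 20.2 points. When each distinct joint was counted once, the differences were 13.1 points (CE) and 9.38 points (SE), since the WT SE share then rose to 13.8, 9.99 and 9.42%. A two-sided exact permutation test over libraries gave p = 0.1 for both, the smallest that 3 against 3 allows, and the lowest Benjamini-Hochberg value over the 18 contrasts of the share was 0.129. With this test no difference between library means could pass a threshold of 0.05, and they are described by their size and overlap.

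The bait mattered in opposite ways in the 2 genotypes. In DMSO-treated WT cells the SE bait gave a lower share than the CE bait, a difference of -1.13 points with no overlap, but counting each distinct joint once turned this to 7.59 points. In Ku70-/- cells the SE share was 5.75 points higher than the CE share, and 3.21 points higher without replicate 1.

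Cycling Ku70-/- cells had the highest MH shares of the series. With the CE bait they held 42.1, 41.5 and 35.9%, and with the SE bait 36.7, 29.9 and 35.3%. All 6 libraries lay above every arrested Ku70-/- library with the same bait. DMSO-treated Ku70-/- cells differed from them by -24.4 points (CE) and -12.8 points (SE). Cycling WT cells held 2.81, 2.23 and 2.48% with the CE bait, and DMSO minus cycling was -0.413 points. Their SE libraries held 0.146, 0.468 and 0.733%, from only 31, 97 and 142 rows. Cycling libraries also held few distinct joints, 338, 264 and 244 (CE) and 203, 102 and 190 (SE) in Ku70-/- cells, and the part of this in the share was not tested.

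The MH share with L67 and L82-G17 differed from DMSO by up to 6.35 points. In Ku70-/- cells with the CE bait, L67 libraries held 18.7, 17.9 and 18.4% and L82-G17 libraries 21.8, 22.6 and 21.05%. Both sets lay above all 3 DMSO libraries. The differences from DMSO were 2.87 and 6.35 points, but 0.930 and 4.41 points without DMSO replicate 1, and 0.603 and 2.47 points with each distinct joint counted once. For the SE bait the L67 libraries held 20.5, 21.6 and 22.2%, overlapping DMSO with a difference of 0.211 points (p = 1.0, two-sided exact permutation test), which counted once turned to -1.45 points. The L82-G17 libraries held 20.6, 25.1 and 22.9%, also overlapping, with a difference of 1.65 points (p = 0.4, two-sided exact permutation test), or 0.778 points counted once. In WT cells with the CE bait, L67 libraries held 2.43, 2.50 and 2.58% and L82-G17 libraries 2.60, 2.86 and 2.99%, all above DMSO, by 0.406 and 0.721 points in the mean. WT SE libraries held 1.15, 1.05 and 1.35% with L67 and 0.937, 0.918 and 0.871% with L82-G17, and both overlapped DMSO. The 2 compounds were used at different concentrations, so their values are set side by side only.

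**Figure D1:**
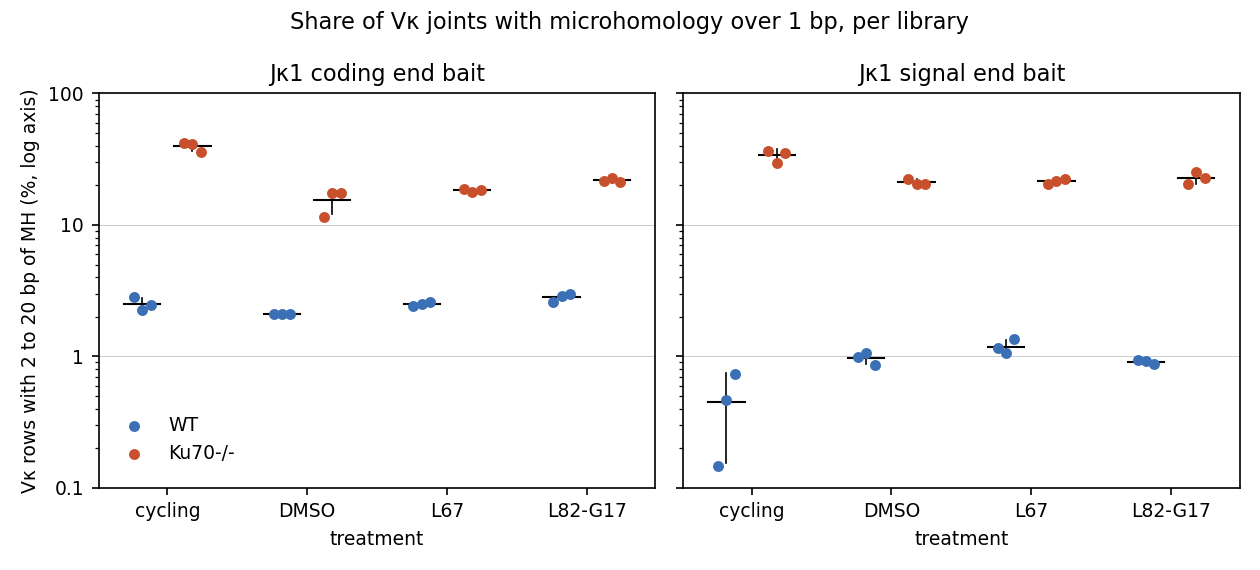
Share of Vκ rows with an overlap of 2 to 20 bp (percent, log axis) in each library by treatment, WT in blue and Ku70-/- in orange, for the coding end and signal end baits. Points are libraries, horizontal lines means of 3 and vertical lines SD. Every Ku70-/- library lies above every WT library, and cycling Ku70-/- libraries lie highest, at 29.9 to 42.1%.

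The MH plot by library shows the genotype difference in all 4 cell conditions, with WT libraries at or under 2.99% and Ku70-/- libraries at or above 11.6%.

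By rows, MH joints were mostly 2 bp long in WT coding end libraries and longer in Ku70-/- cells, but counted once the mean lengths differed by 0.0788 bp. With the CE bait and DMSO, 2-bp joints were 84.8% ± 0.719 (SD, n = 3) of WT MH rows and 55.4% ± 5.92 (SD, n = 3) of Ku70-/- MH rows. Without replicate 1 the Ku70-/- share was 58.8%. Joints of 3 bp were 9.05% ± 0.932 in WT and 20.5% ± 1.58 in Ku70-/- cells (SD, n = 3), and those of 4 bp were 2.25% and 10.6%. Joints of 5 bp or more were 3.87% in WT and 13.5% in Ku70-/- cells, or 10.3% in the latter without replicate 1. The mean length was 2.32 ± 0.0323 bp in WT and 2.98 ± 0.255 bp in Ku70-/- cells (SD, n = 3), with no overlap, and 2.83 bp without replicate 1. Counted once, 49.5% of WT and 48.8% of Ku70-/- joints were 2 bp long. The mean lengths counted once were 3.06, 3.00 and 3.07 bp in WT and 3.34, 3.00 and 3.02 bp in Ku70-/- libraries, which overlapped.

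For the SE bait the lengths of the 2 genotypes were closer at the short end. Joints of 2 bp were 48.6% ± 0.471 of WT and 50.0% ± 2.73 of Ku70-/- MH rows (SD, n = 3). The mean length was 3.49 ± 0.169 bp in WT and 3.22 ± 0.0641 bp in Ku70-/- cells (SD, n = 3), so that the direction was opposite to that of the CE bait. WT SE libraries had a second group of lengths at 7 bp, 7.75% ± 1.47, and 8 bp, 7.33% ± 3.41 (SD, n = 3), where Ku70-/- cells had 1.30 and 4.05%. Among rows with at least 2 bp of overlap within both cut ends, the mean length was 0.255 bp higher in Ku70-/- than in WT cells. That length still includes bases beyond the cuts.

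Cycling Ku70-/- cells carried the longest MH of the Ku70-/- groups. Only 35.4% ± 6.62 (CE) and 34.8% ± 6.12 (SE) of their MH rows shared 2 bp (SD, n = 3). Their CE libraries had 31.3% at 3 bp and 19.1% at 4 bp, and their SE libraries had 20.4% ± 2.68 at 5 bp (SD, n = 3). Mean lengths were 3.34 ± 0.0772 bp (CE) and 3.72 ± 0.182 bp (SE), against 2.98 and 3.22 bp with DMSO, and the libraries overlapped with the CE bait only. Ku70-/- CE libraries had mean lengths of 2.81 bp with L67 and 2.89 bp with L82-G17, near the 2.83 bp of DMSO replicates 2 and 3, and SE libraries 3.30 and 3.29 bp. Cycling WT SE libraries had a mean length of 6.84 ± 1.69 bp (SD, n = 3), from the 5 to 16 distinct joints each of them held.

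**Figure D2:**
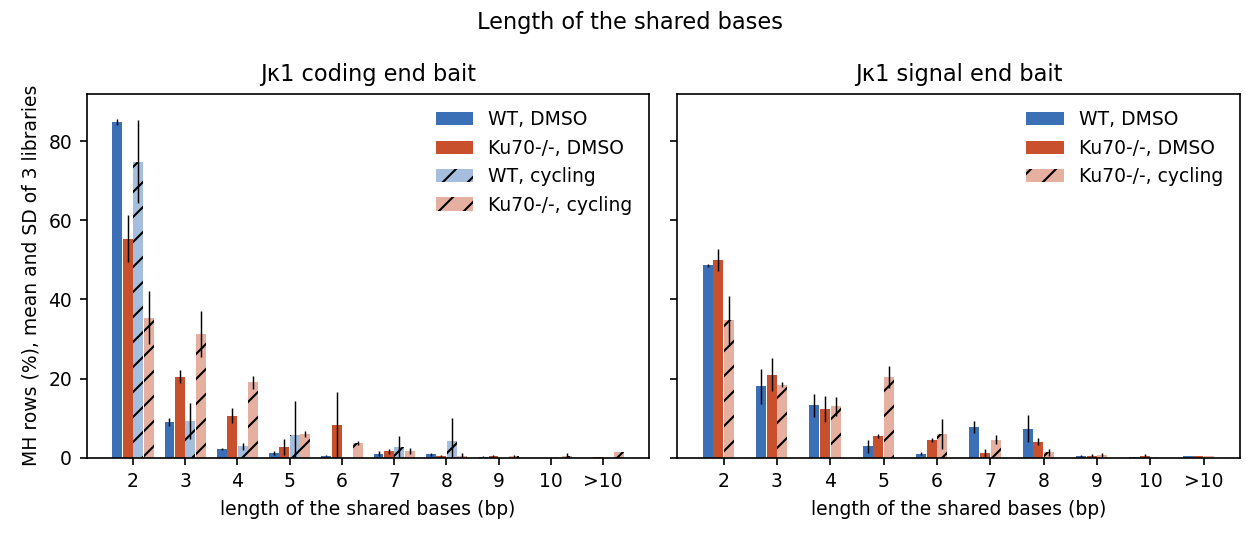
Share of MH rows (percent) at each length of the shared bases (bp), in DMSO-treated and cycling cells of both genotypes, for both baits. Bars are means of 3 libraries with SD, lengths over 10 bp are pooled without SD, and cycling WT libraries with the signal end bait are left out. WT coding end joints fall steeply from 84.8% at 2 bp, and WT signal end joints rise again at 7 and 8 bp.

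The plot of length spread shows the shoulder at 7 and 8 bp in WT SE libraries, which coincided with the heptamer. CACTGTG, the Jκ1 heptamer itself, was the whole shared sequence in 7.01% ± 1.81 of WT SE MH rows, and CACTGTGG in 4.47% ± 2.74 (SD, n = 3, DMSO). With a coding end as prey, such an overlap lies beyond the prey cut, because the Vκ heptamer precedes the coding end in the uncut sequence. Among MH rows within 200 bp of a break site, the prey alignment ran beyond the prey break in 37.0% of WT and 9.15% of Ku70-/- SE rows, and in 13.4 and 4.64% of CE rows. Of all WT SE MH rows this was 26.5%. The bait alignment ran beyond the Jκ1 break in 20.5% of WT and 7.55% of Ku70-/- SE rows, and in 9.87 and 0.491% of CE rows. Counting only bases within both cut ends, 30.9% ± 11.5 of WT SE MH rows and 17.2% ± 1.36 of WT CE MH rows (SD, n = 3) shared under 2 bp, against 5.96 and 3.73% in Ku70-/- cells. Counted once, the shares were 33.1, 30.4 and 33.1% (SE) and 42.3, 42.3 and 40.7% (CE) in WT libraries, so that the order of the baits turned. For rows more than 200 bp from a break site only the bait cut was counted. Such rows were 28.7% of WT SE and 0.436% of WT CE MH rows with DMSO, so the baits were not measured alike.

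The composition of the shared bases also differed between genotypes by rows. In WT CE libraries with DMSO the read orientation gave A 35.8%, C 41.8%, G 11.9% and T 10.5%, and in Ku70-/- cells A 17%, C 40.1%, G 18.7% and T 24.2%. Counted once, A was 25.3% in WT and 18.9% in Ku70-/- cells and T 17.7 and 25.6%, but G was 20.6% in WT and 16.5% in Ku70-/- cells, the opposite order. AC alone was the shared sequence of 59.6% ± 1.79 of WT MH rows and GT of 17.2% ± 0.83 (SD, n = 3). Both dinucleotides are spelled by the last bases of the Jκ1 coding end printed above, AC at the tip and GT 4 bp inside. Counted once, GT led with 21% ± 1.40, followed by GTC with 15.4% ± 2.09 and AC with 12.5% ± 1.70 (SD, n = 3), so that the rank of AC came from read numbers.

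Ku70-/- cells shared a wider set of sequences. With the CE bait and DMSO, GT was 2.06, 13.3 and 12.02% of MH rows in the 3 libraries, CC 6.51, 8.10 and 8.57%, and TG 14.4, 4.15 and 3.89%. GT was thus low and TG high in replicate 1, and without it GT led with 12.7%, followed by CC with 8.33% and GA with 7.42%. The 6-bp CCACCG was 6.34% ± 9.92 (SD, n = 3) and was high in replicate 1, where 1 joint at Igkv4-57-1 had 1979 rows. At that joint the reference did not carry these bases on both ends. MH rows that matched the reference on both ends were 80.0, 93.7 and 92.4% in the 3 libraries. In the inhibitor libraries, which held no such dominant joint, GT led with 12.3% ± 1.17 (L67) and 12.7% ± 1.01 (L82-G17), followed by CC with 9.58 and 8.33%. GA was 6.21 and 5.12%, CT 5.66 and 4.69% and AC 5.57 and 5.42% in these libraries. Cycling Ku70-/- CE libraries had GT at 6.34%, AC at 4.93%, CC at 4.44% and TT at 3.66%, and T made up 32.9% of their shared bases.

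WT cells shared TG at the signal end in 16.9% ± 2.93 of MH rows (SD, n = 3), CT in 7.84%, TGT in 7.56% and GT in 7.43%, all runs of letters of the heptamer. GG was 4.61, 3.55 and 17.1%, high in 1 library. Ku70-/- cells shared AC in 30.04, 10.9 and 10.6% of MH rows with DMSO, of which the first is replicate 1, and in 11.1% ± 1.70 with L67 and 12% ± 0.44 with L82-G17 (SD, n = 3). GT was 7.18% of MH rows with DMSO. Cycling Ku70-/- SE libraries had AC at 8.56, 5.96 and 9.01%. GA was 3.18, 16.97 and 2.13% and TACAG, a 5-bp stretch, 1.83, 11.9 and 6.76%, both highest in replicate 2, which held 102 distinct joints.

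The GC share of the shared bases was 53.7% ± 0.242 in WT and 58.8% ± 3.48 in Ku70-/- cells with the CE bait (SD, n = 3), and 56.8% in Ku70-/- cells without replicate 1. Counted once, the difference turned to -1.57 points. In SE libraries it was 57.8% ± 3.47 in WT and 53.9% ± 0.901 in Ku70-/- cells (SD, n = 3). Among rows with at least 2 bp of overlap within both cut ends, Ku70-/- minus WT turned to 0.178 points. Cycling Ku70-/- cells had 52.8% (CE) and 49.5% (SE), the lowest of the Ku70-/- groups. The lowest adjusted value over the contrasts of GC share was 0.257.

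Trimming of the bait end separated the genotypes clearly. In the trimming values, shared bases count as kept on both ends. With the CE bait and DMSO, 0.495% ± 0.205 of WT MH rows and 67.3% ± 2.41 of Ku70-/- MH rows had lost 10 bp or more from Jκ1 (SD, n = 3), a difference of 66.8 points with no overlap. The median loss per library was 0 bp in WT and 14.7 ± 1.15 bp in Ku70-/- cells (SD, n = 3). In SE libraries the shares were 2.77% ± 2.24 and 46.5% ± 6.55 (SD, n = 3), and 50.3% in Ku70-/- cells without replicate 1, with median losses of 1 and 9 bp. In WT CE libraries 61.1% ± 1.8 of MH rows ended at the untrimmed Jκ1 end and 17.3% ± 0.8 at 4 bp (SD, n = 3), the positions of AC and GT. Counted once, the 4-bp position held 21.4%, the untrimmed end 18.6% and the 3-bp position 16.2%.

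No single position took such a share in Ku70-/- cells with L67 or L82-G17. With DMSO, 1 joint at Igkv4-57-1 with 9 bp lost from the coding end held 17.8, 0 and 0.0465% of MH rows in the 3 libraries, of which the first is replicate 1. The 4-bp position of the coding end held 10.6% ± 0.9 with L67 and 10.8% ± 0.6 with L82-G17 (SD, n = 3), followed by 8 bp with 5.5% and 16 bp with 5.0% in L67 libraries. On the signal end the leading position was 7 bp, which removes the heptamer, with 8.3% ± 0.4 (L67) and 8.4% ± 1.2 (L82-G17) of MH rows (SD, n = 3). In WT SE libraries 21.1% ± 2.8 ended at the untrimmed heptamer (SD, n = 3), 15.2% at 1 bp, 16.2% at 2 bp and 16% one base beyond it.

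**Figure D3:**
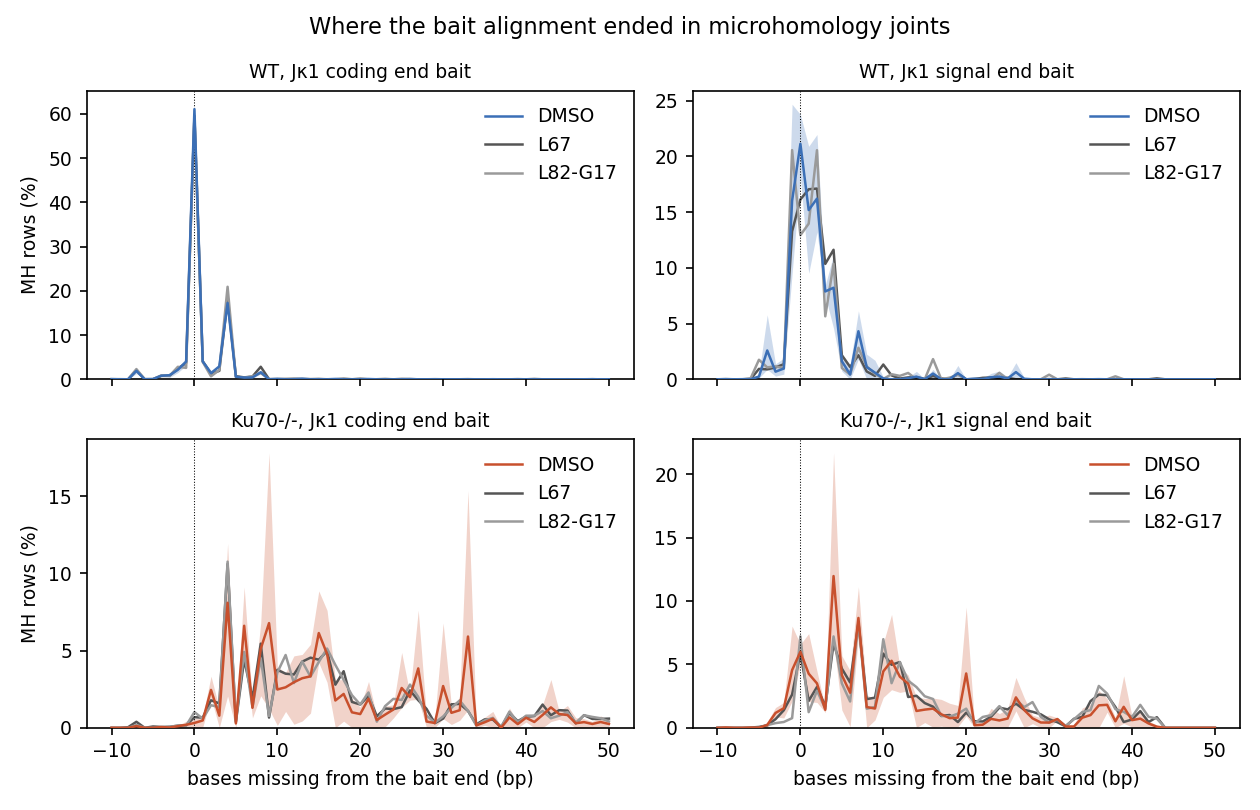
Share of MH rows (percent) whose bait alignment ended at each number of bases missing from the bait end (bp, below 0 for an alignment that runs past the break), for each genotype and bait, with a scale of its own per panel. Lines are means of 3 libraries of DMSO, L67 and L82-G17 cells, the shading spans the lowest to the highest DMSO library, and the dotted line marks the untrimmed end. WT coding end joints stand at 0 and 4 bp, and Ku70-/- joints spread over the 50 bp shown.

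The plot of bait end positions shows how the Ku70-/- lines lack the WT peak at the untrimmed coding end. Cycling Ku70-/- cells had lost 10 bp or more in 89.1% ± 0.639 (CE) and 73.1% ± 1.58 (SE) of MH rows (SD, n = 3), with median losses of 22.7 and 16.3 bp. L82-G17 libraries lay above DMSO with both baits, at 72.3% ± 0.482 (CE) and 61% ± 2.36 (SE) (SD, n = 3). The differences from DMSO were 5.02 and 14.4 points, and 3.78 and 10.7 points without DMSO replicate 1. At a limit of 5 bp the CE difference turned to -3.11 points. L67 libraries also lay above DMSO with both baits, at 70.9% ± 0.666 (CE) and 54.3% ± 1.99 (SE) (SD, n = 3). Their differences from DMSO were 3.64 and 7.71 points, or 2.40 and 3.93 points without DMSO replicate 1. The lowest adjusted value over the contrasts of bait trimming was 0.164.

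Prey ends followed the same order. They were measured on the MH rows within 200 bp of a break site, and prey and hybrid shares are shares of those rows unless all MH rows are named. With DMSO, 97.7% ± 0.534 (CE) and 91.5% ± 2.26 (SE) of these WT rows joined within 10 bp of a break site, against 42.4% ± 5.51 and 56.0% ± 4.81 in Ku70-/- cells (SD, n = 3). The differences were -55.3 and -35.5 points, with no overlap, and -52.3 and -32.8 points without replicate 1. Of all MH rows, 97.3% (CE) and 65.3% ± 2.98 (SE) of WT and 40.5% and 54.1% ± 3.63 of Ku70-/- rows joined within 10 bp of a break site (SD, n = 3). The SE difference was then -11.1 points, or -9.01 without replicate 1, still with no overlap. Both ends had lost 10 bp or more in 50.2% (CE) and 25.9% (SE) of Ku70-/- rows and in 0.327% of WT CE rows near a site. Without replicate 1 the Ku70-/- values were 49.3 and 30.5%. In cycling Ku70-/- cells 25.2% ± 2.60 (CE) and 47.8% ± 7.60 (SE) of the near-site MH rows reached within 10 bp of a break site, or 15.5 and 30.5% of all MH rows. Both ends were trimmed in 72.0% ± 1.67 of near-site CE rows (SD, n = 3) and 44.2% of all CE MH rows. With L82-G17 the CE value was 34.8% ± 1.29 (SD, n = 3), a difference from DMSO of -7.64 points, or -10.6 points without DMSO replicate 1, whereas L67 libraries lay at 42.2% ± 0.661 (SD, n = 3). The SE difference with L82-G17 was -3.30 points, with overlapping libraries. Among near-site MH rows prey loss had a median of 2 bp in WT CE, 11.7 bp in Ku70-/- DMSO, 15.3 bp in L82-G17 and 20.3 bp in cycling Ku70-/- libraries.

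MH rows were set beside the other Vκ rows of the same library, as a description, because the overlap that chose them enters the position of both ends. In cycling Ku70-/- cells bait loss of 10 bp or more was 23.9 ± 1.80 points more frequent among CE MH rows and 27.1 ± 2.48 points among SE MH rows than among other rows (SD, n = 3), in 3 of 3 libraries each. In arrested Ku70-/- cells the CE differences were small, at 2.47 points with DMSO (0.149 without replicate 1), 0.126 with L67 and 3.24 ± 0.612 with L82-G17 (SD, n = 3). At the signal end the MH rows had instead lost less than other rows in every arrested Ku70-/- library, by -12.8 ± 10.1 points with DMSO (-6.91 without replicate 1), -6.64 ± 1.94 with L67 and -7.02 ± 0.831 with L82-G17 (SD, n = 3). Among rows near a site, their prey ends lay within 10 bp of the break more often in 3 of 3 libraries each, by 8.85 ± 2.22 points with L67 and 13 ± 2.65 with L82-G17 (SD, n = 3). With DMSO the prey differences were -7.11, 9.49 and 8.81 points, replicate 1 going the other way. With the CE bait the prey differences were -5.56 points with DMSO (0.307 without replicate 1), -0.780 with L67 and -4.02 ± 1.63 with L82-G17 (SD, n = 3). In cycling Ku70-/- cells they were -25.2 ± 5.50 (CE) and -11.1 ± 4.85 points (SE) (SD, n = 3).

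**Figure D4:**
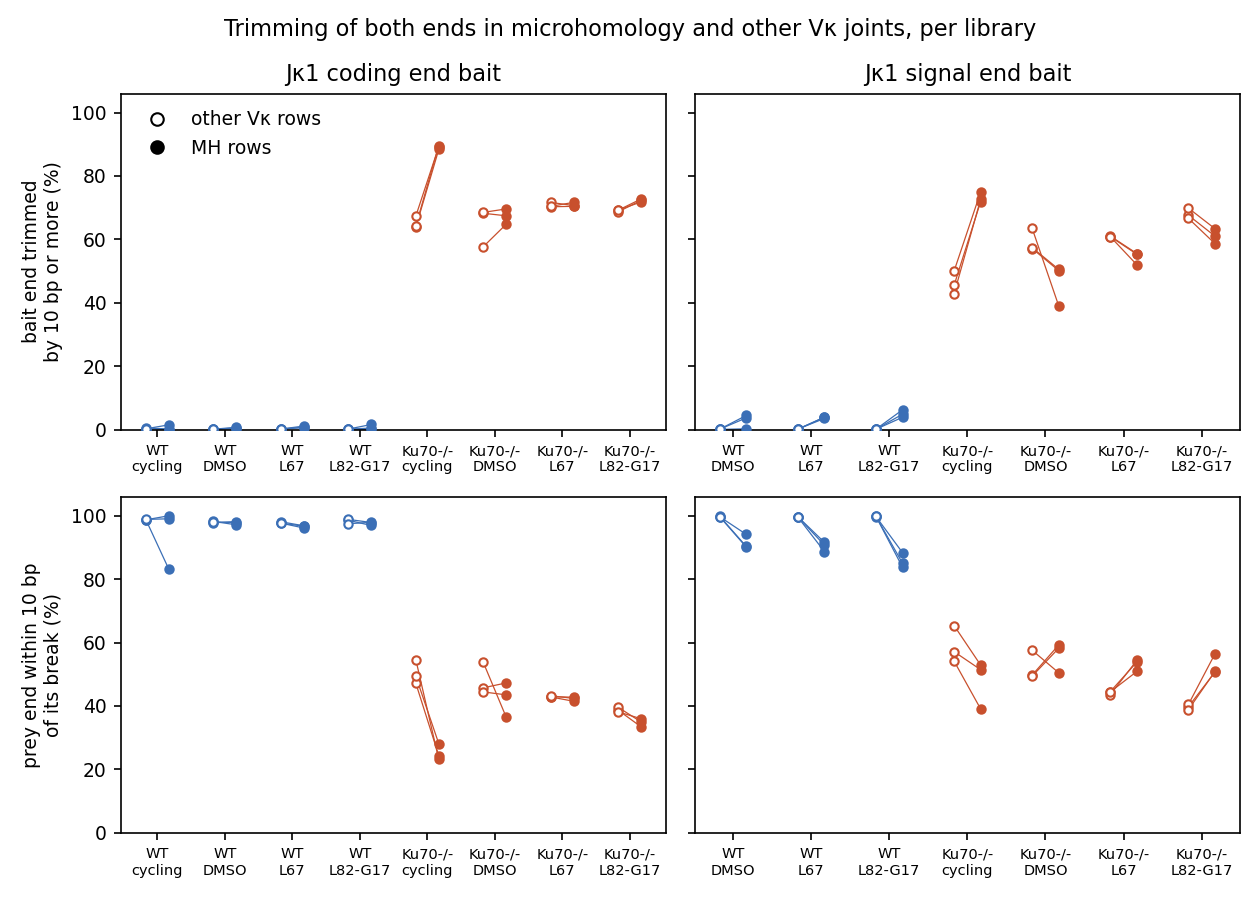
Share of rows (percent) with 10 bp or more lost from the bait end (upper panels) and, of rows within 200 bp of a break site, with a prey end within 10 bp of its break (lower panels), for MH rows (filled) and all other Vκ rows (open) of the same library, joined by a line per library. Cycling WT libraries with the signal end bait are left out. In the upper panels MH rows lie above other rows in all 6 cycling Ku70-/- libraries and below them in all 9 arrested Ku70-/- libraries with the signal end bait.

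The paired plot of MH and other rows shows that in Ku70-/- cells the direction differed between baits and between cycling and arrested cells. In the WT libraries shown, bait losses were near 0 in both kinds of rows. In the cycling WT SE libraries left out, 54.8, 46.4 and 2.11% of MH rows had lost 10 bp or more, from 5, 10 and 16 distinct joints. Of the rows within 200 bp of a site, WT SE prey ends lay within 10 bp of the break in 91.5% of MH rows and 99.7% of other rows with DMSO.

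Near break sites, MH joints of WT cells held more hybrid joints than the other joints did. With the CE bait and DMSO, 5.44% ± 1.10 of WT MH rows within 200 bp of a site linked the coding end to a Vκ signal end (SD, n = 3), against 0.101% of other rows, and with the SE bait 50.4% ± 6.24 (SD, n = 3) linked the signal end to a coding end, against 1.38%. The latter MH share was 35.99% ± 5.17 of all WT SE MH rows (SD, n = 3). Counted once, 21.4, 14.4 and 17.03% of near-site WT CE joints were hybrid. The hybrid share increased with length in WT CE libraries, from 0.0501% of direct joints to 2.03% at 2 bp, 8.01% at 3 bp, 41.1% at 4 bp and 53.5% at 5 bp or more. In WT SE libraries it was 0.505% of direct joints, 25.5% at 1 bp, 45.6% at 2 bp, 11.2% ± 9.79 at 3 bp (SD, n = 3), 52.3% at 4 bp and 72.5% at 5 bp or more, so that it did not follow length. Past the Jκ1 coding end the uncut sequence continues with the heptamer, with which Vκ signal ends also start. An untrimmed hybrid joint is therefore scored as a long overlap beyond a cut. At 5 bp or more, median bait losses were -7, -3 and -4 bp in WT CE libraries, and the median prey loss was -7 bp in each WT SE library. The hybrid share by length is thus not independent of how overlap was counted. In Ku70-/- cells hybrid joints were 34.1% ± 7.56 (CE) and 44.8% ± 1.92 (SE) of near-site MH rows (SD, n = 3) and 35.2 and 48.4% of other near-site rows. Without replicate 1 they were 38.4 and 45.5% of MH rows and 31.7 and 48.2% of other rows. With the SE bait Ku70-/- minus WT was -5.56 points of near-site MH rows and 7.41 points of all MH rows, so that the order of the genotypes turned with the denominator.

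L82-G17 libraries of Ku70-/- cells held fewer hybrids among near-site MH rows, 24.9% ± 0.473 (CE) and 34.8% ± 1.01 (SE) (SD, n = 3), differences from DMSO of -9.24 and -10.02 points, or -13.5 and -10.7 points without DMSO replicate 1. Among other rows of the same libraries hybrids were also fewer, at 23.2 and 37.8%. L67 libraries held 39.8% ± 0.267 (CE) and 49.6% ± 1.36 (SE) (SD, n = 3). The lowest adjusted value over the contrasts of hybrid share was 0.164.

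Recurrent pairs of bait and prey positions held most MH rows of the WT coding end libraries. The Igkv16-104 joint through AC had 3175, 3024 and 3171 rows in the 3 DMSO libraries, or 42.4% ± 1.03 of MH rows (SD, n = 3). It made up 25.8% ± 3.59 in cycling (SD, n = 3), 39.6% in L67 and 41.3% in L82-G17 WT libraries. In DMSO-treated Ku70-/- cells it had 3 rows in all. The Igkv1-117 joint had 286, 410 and 315 rows and the Igkv1-110 joint 170, 183 and 216 rows in WT DMSO libraries, and neither was seen in DMSO-treated Ku70-/- cells. Of 763 combinations of bait and prey position in WT CE DMSO libraries, 155, or 20.3%, were found in all 3 and held 83.2% of the rows.

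Summed over 3 libraries, Ku70-/- cells held more combinations, from more MH rows per library. WT DMSO CE libraries held 395, 404 and 418 distinct MH joints in 7604, 7211 and 7270 rows, more than the 152 of Ku70-/- replicate 1 and fewer than the 2223 and 2094 of replicates 2 and 3, which had 20046 and 19346 rows. WT DMSO SE libraries held 360, 194 and 181 distinct MH joints, and the genotypes overlapped with both baits. DMSO-treated Ku70-/- CE libraries held 3915 combinations, of which 23 were in all 3 libraries, with 6.49% of the rows. Replicates 2 and 3 alone shared 506 of their 3811 combinations, with 39.3% of their rows. L67 libraries held 6230 combinations with 310 in all 3, and L82-G17 libraries 6151 with 351 in all 3, holding 26.9 and 29.95% of the rows. WT and Ku70-/- DMSO libraries had 129 CE combinations in common, which is 16.9% of the WT and 3.30% of the Ku70-/- combinations. In SE libraries they had 154 in common, 24.3% of the WT and 3.53% of the Ku70-/- combinations.

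The 3 Ku70-/- CE pairs with the highest mean share among those in all 3 DMSO libraries showed how much 1 library set them. Igkv4-59 through CT, with 15 bp lost from Jκ1 and 11 bp from the Vκ end, had 747, 1 and 3 rows. Igkv3-10 through TCC, with 2 bp and 6 bp lost, had 364, 105 and 52 rows and was also read in 118 rows of the L67 and 80 rows of the L82-G17 libraries. The signal end of Igkv8-16 through TCC, with 27 bp and 15 bp lost, had 284, 3 and 7 rows. Replicate 1 was highest for all 3.

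Between replicates 2 and 3, which leaves out DMSO replicate 1, the recurrent combinations held like shares of the Ku70-/- CE rows, 39.3% with DMSO, 37.95% with L67 and 41.8% with L82-G17. The Igkv12-46 joint through GT had 207, 91 and 246 rows with L67 and 270, 96 and 164 with L82-G17. The Igkv12-44 joint had 100, 122 and 87 rows with L67 and 160, 105 and 224 with L82-G17, and the Igkv12-41 joint 161, 132 and 55 rows and 158, 95 and 153 rows. With DMSO the 3 joints had 303, 257 and 317 rows over the Ku70-/- libraries. In WT CE libraries the Igkv12-46 joint had no row, the Igkv12-44 joint 7 rows with DMSO and 6 with L67, and the Igkv12-41 joint 6 rows with DMSO and 1 with L67. In all 6 Ku70-/- inhibitor libraries 142 CE and 91 SE combinations recurred.

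The leading WT SE pair at the Igkv6-32 signal end had 94, 153 and 81 rows, or 3.35% ± 0.918 of MH rows (SD, n = 3), and none in Ku70-/- DMSO, L67 or L82-G17 libraries. The 2 pairs in the Igkv15-103 intron had 173, 26 and 58 rows and 11, 199 and 11 rows, so that different libraries led. In Ku70-/- cells the Igkv12-44 pair had 2662, 19 and 7 rows, the Igkv4-50 heptamer pair 2017, 55 and 163 rows, and a pair at Igkv4-81 through GT 1380, 1 and 5 rows. Igkv1-135, the most J-distal Vκ gene with a named pair here, joined through GTG with an untrimmed bait and 4 bp lost from its signal end in 70, 132 and 75 rows with L67 and 91, 99 and 150 with L82-G17. It joined through CAC with 4 bp lost from the bait and an untrimmed signal end in 141, 73 and 140 rows with L67 and 121, 22 and 99 with L82-G17. Over the 3 libraries of a group, the first pair had 189 rows in Ku70-/- DMSO and 63 in WT DMSO cells and the second 28 and 47 rows, and with L67 WT cells had 1 and 41 rows. In the first pair the shared bases were those at the cut of the bait heptamer, and in the second those at the cut of the prey heptamer. Both pairs were also chosen after their values were seen.

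Across Vκ break sites, the MH share of a site's rows was higher in Ku70-/- cells at nearly every site. Break sites were the 138 positions at which junctions of arrested WT cells with the SE bait piled up at the start of a CAC, 94 of them at an annotated Vκ gene, and 94.1% of MH rows lay within 200 bp of one. In a limma fit of the log2 odds of MH per site between Ku70-/- and WT DMSO libraries with the CE bait, 84 of 112 sites passed an adjusted p threshold of 0.05, or 75%, of which 83 were higher in Ku70-/- cells. With the SE bait 94 of 111 passed, or 84.7%, all higher. The median log2 difference was 3.83 (CE) and 6.11 (SE). Because a site with few rows in either group is uncertain, the p-values of the same fit were adjusted again over a part of the sites. Of sites with at least 50 rows per library in both groups, 69 of 95 (72.6%, CE) and 83 of 99 (83.8%, SE) passed. Counted once, 27 SE sites passed, against 94 by rows. That fit had a row limit of its own, so its sites were not the same set as the 111. The median site had an MH share of 12.9% in Ku70-/- and 1.09% in WT cells with the CE bait, and 16.5 and 0.497% with the SE bait.

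The 1 CE site that was lower in Ku70-/- cells was Igkv16-104 (ENSMUSG00000076522.1), the site of the leading WT joint. MH joints were 58.9, 60.9 and 58.7% of its rows in WT DMSO libraries and 0.177, 16 and 16.4% in Ku70-/- DMSO libraries. The WT libraries lay above all Ku70-/- libraries, with a log2 odds difference of -5.07 (SE 1.35, limma adjusted p = 0.00334) and of -2.92 without Ku70-/- replicate 1. Counted once, the difference was 0.66 in the other direction (limma adjusted p = 0.0831). Its share was 57.3 and 61.1% in WT cells and 22.3% ± 5.53 and 20.2% ± 0.245 in Ku70-/- cells with L67 and L82-G17 (SD, n = 3).

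At most other named CE sites the Ku70-/- share was higher. Igkv1-88 held 0.0603, 0.0840 and 0.341% MH rows in WT and 48.7, 19.4 and 19.1% in Ku70-/- libraries, a log2 difference of 8.22 (SE 1.04, limma adjusted p = 8.65e-06). Igkv3-10 held 0.839, 0.224 and 0.187% in WT and 73.9, 19.3 and 17.4% in Ku70-/- libraries, a log2 difference of 7.27 (SE 0.96, limma adjusted p = 1.05e-05). Neither set of libraries overlapped. Igkv6-20 rested on few rows, with 2 of 503, 3 of 623 and 0 of 545 in WT and 20 of 20, 18 of 266 and 30 of 161 in Ku70-/- libraries. Igkv5-45 and Igkv4-57-1 reached 99.6 and 73.0% in Ku70-/- replicate 1, and without it their log2 differences were 2.23 and 3.88 in place of 5.77 and 5.07. Igkv1-117 held 5.01, 5.79 and 5.09% in WT and 5.59, 16.1 and 18.4% in Ku70-/- libraries, which overlap, and Igkv1-110 held 4.13, 3.76 and 3.98% against 0.295, 10.5 and 10.9%, with a log2 difference of -0.22 (limma adjusted p = 0.827) that became 1.54 without replicate 1.

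With the SE bait, Igkv12-44 held 33 of 9596, 0 of 8563 and 1 of 8636 MH rows in WT and 42.0, 22.8 and 15.2% in Ku70-/- libraries, a log2 difference of 10.0 (SE 1.33, limma adjusted p = 6.70e-06). Igkv1-110 held 62 of 7385, 1 of 6129 and 0 of 7199 in WT and 56.3, 23.3 and 29.7% in Ku70-/- libraries. Igkv4-50 held 2.68, 2.05 and 0.524% in WT and 89.2, 25.7 and 21.1% in Ku70-/- libraries, with log2 differences of 5.97 and, without replicate 1, 4.38. Groups did not overlap at these 3 sites. These site values count rows. Over the named sites of both baits, counting each distinct joint once left 9 unchanged in direction and call. It reversed 2, and 4 kept their direction but no longer passed. Igkv6-32, the leading WT site, did not pass (log2 1.46, limma adjusted p = 0.232).

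**Figure D5:**
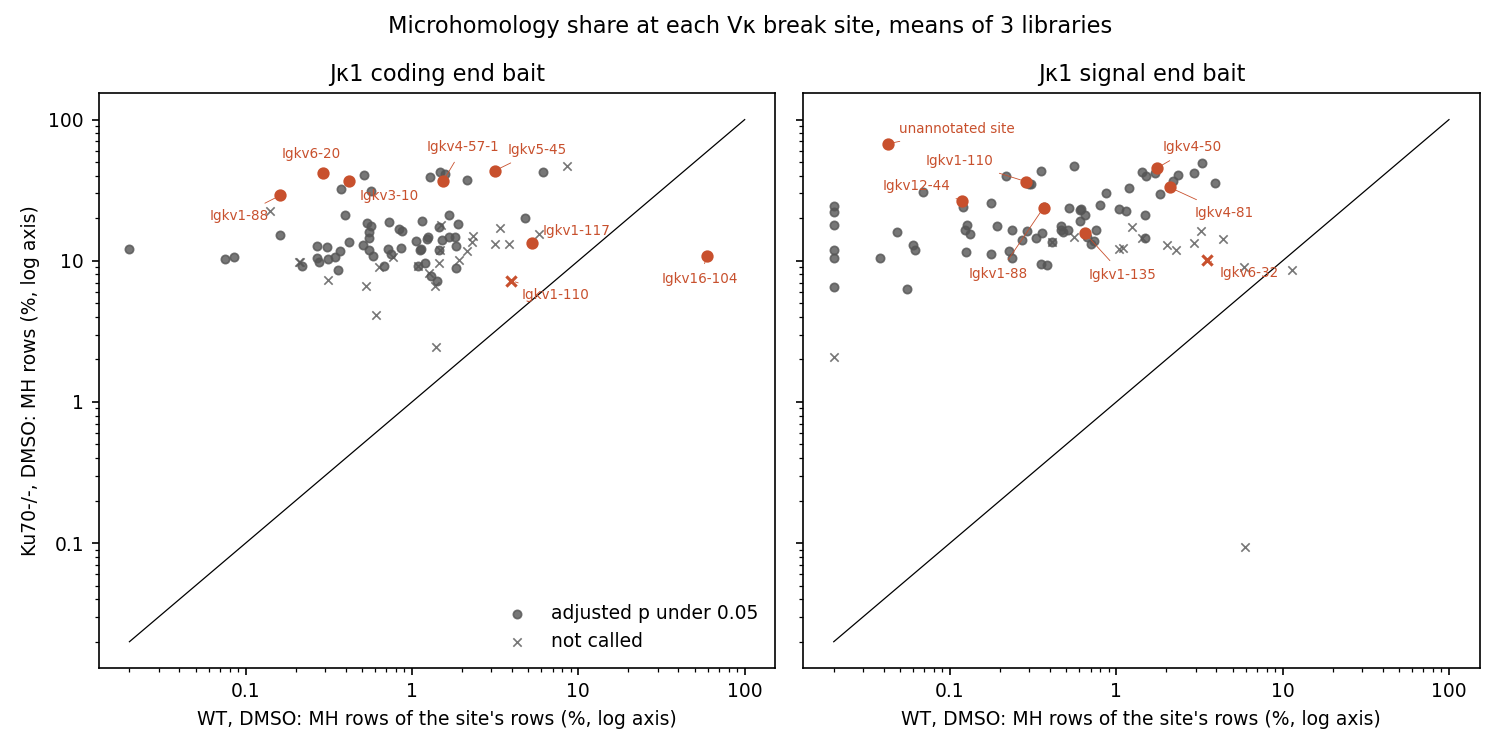
MH share of each break site's rows (percent, log axes) in DMSO-treated WT cells (horizontal) against Ku70-/- cells (vertical), for both baits, as means of 3 libraries. Circles are sites past an adjusted p of 0.05 and crosses are other sites, named sites are in orange, shares under 0.02% are drawn at 0.02%, and the diagonal marks equal shares. Nearly all sites lie on the Ku70-/- side, and Igkv16-104 lies on the WT side with the coding end bait.

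In the plot of break sites, 88 of 89 sites measured in every CE library and 86 of 88 SE sites had a higher mean share in Ku70-/- cells. The 3 libraries of each genotype did not overlap at 42 CE sites (47.2%) and 46 SE sites (52.3%).

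Few sites passed the test with an inhibitor. In Ku70-/- cells with L67, 1 of 112 CE sites passed (0.893%), an unannotated site at 68006805, and 0 passed under the stricter limit. With L82-G17, 1 of 111 SE sites passed (0.901%, or 1.04% under the stricter limit). It was Igkv4-90, at 52.7% ± 26.2 with L82-G17 and 6.53% ± 10.8 with DMSO (SD, n = 3), a log2 difference of 5.88 (SE 1.40, limma adjusted p = 0.0446). It rested on 109 and 23 MH rows, and 0 sites passed with each distinct joint counted once, at a limit of 200 rows, or without any one of DMSO replicates 1 and 2 and L82-G17 replicates 1 and 2. For the other 6 inhibitor comparisons limma called 0 sites (0%), with 5 (L67) and 4 (L82-G17) WT CE sites, 6 and 12 WT SE sites, 16 Ku70-/- CE sites with L82-G17 and 4 Ku70-/- SE sites with L67 at an unadjusted p under 0.05. Without DMSO replicate 3, 12 Ku70-/- CE sites passed with L82-G17, 10 higher and 2 lower. In Ku70-/- cells the median log2 difference over the CE sites tested was 0.99 with L82-G17 and 0.57 with L67. Over the SE sites it was 0.29 with L82-G17 and 0.67 with L67, the opposite order. These medians include DMSO replicate 1. With changes of 2 on the log2 scale simulated in 30 sites, 26.7% (CE) and 13.3% (SE) of them were recovered in the Ku70-/- to WT fit. Under the stricter limit, 11.5% of 26 changed CE sites and 0% of 24 changed SE sites were recovered. No simulation was run for the inhibitor comparisons.

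The sites that carried the MH rows also differed. In WT CE DMSO libraries Igkv16-104 held 43.2% ± 1.14 of all MH rows (SD, n = 3), followed by Igkv1-117 with 6.26% and Igkv1-110 with 3.54%, and 3 sites held 50% of the rows near a site. In WT SE libraries 14 sites did, led by Igkv6-32 with 7.60% ± 1.95 (SD, n = 3). Ku70-/- DMSO libraries needed 13 (CE) and 14 (SE) sites, and L67 libraries 20 and 22. The leading DMSO sites were highest in replicate 1, at 18.6, 1.11 and 1.92% for Igkv4-57-1 (CE) and 14.6, 3.75 and 3.39% for Igkv4-50 (SE). The numbers of sites without replicate 1 were not computed. Igkv1-135 led in both inhibitor groups of Ku70-/- CE libraries, with 5.12% ± 0.907 (L67) and 5.76% ± 0.951 (L82-G17) (SD, n = 3). MH joints were 17.9 and 23.7% of the rows at this site, near the 18.3 and 21.8% of all Vκ rows in these groups. Of rows near a site, Vκ genes in inverted orientation took 30.4% ± 0.571 of WT CE MH rows and 59.5% ± 0.879 of other rows (SD, n = 3). Igkv16-104, Igkv1-117 and Igkv1-110 all join by deletion. In Ku70-/- CE libraries the shares were 67.3 and 60.5%, or 62.6 and 60.8% without replicate 1.

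Some MH joints lay away from any break site. In cycling Ku70-/- cells 38.5% of CE MH rows were more than 200 bp from a site, against 26.7% of other rows, with a median distance of 1432 bp, and 35.4% of SE MH rows against 16.3%. In DMSO-treated Ku70-/- cells 95.8% (CE) and 96.8% (SE) of MH rows were near a site. In WT SE DMSO libraries 28.7% ± 2.52 of MH rows (SD, n = 3) lay away from a site, against 0.862% of other rows, while 99.6% of WT CE MH rows were near one. A share of these lay in the intron of Igkv15-103 (ENSMUSG00000076523.1), between exon 1 (chr6:68387462-68387510) and exon 2 (chr6:68387622-68387919, plus strand). It held 8.35% ± 2.93 of WT SE MH rows with DMSO, 10.1% ± 5.44 with L67 and 9.19% ± 3.81 with L82-G17 (SD, n = 3), and 0.381% of other rows with DMSO.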

How the data were processed

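Each deposited file is the authors' list of junctions of 1 library, 1 junction per line, with unit-less read coordinates of the bait and prey alignments, which are neither counts nor normalized values. Per the labels and methods, the authors demultiplexed and merged reads, took 500000 read pairs per library, aligned them to mm9 with Bowtie2 within the TranslocWrapper pipeline, added junctions of the bait region and did not remove duplicates, so a row is a read and not an event. Overlap was taken as the bait end minus the prey start in the read, plus 1. Break sites were positions at the start of a CAC with at least 30 SE-bait junctions of arrested WT libraries, more than 50 bp apart, and a joint was placed at the nearest site within 200 bp. Bait and prey losses, shared bases and distinct joints were computed per library in Python 3.11.15 (pandas 2.3.3, SciPy 1.17.1), with sequences read from NCBIM37. Of MH rows, 91.9% matched the reference at the shared bases on both ends. Library values were compared by two-sided exact permutation tests with Benjamini-Hochberg adjustment over 18 contrasts. Site odds (pseudocount 0.5, at least 50 rows per library averaged over a bait's arrested libraries) were fitted with limma 3.58.1 in R 4.3.3. On simulated data without change this fit called 7 (CE) and 8 (SE) sites and the limit of 50 rows in both groups none, so both are given; the second was chosen after seeing the data. The named pairs were those in all 3 libraries of a DMSO group with the 3 highest mean shares, and the named sites those of these pairs, of the leading sites and of the largest called differences. The rows, lists and tests were chosen with earlier results of these data known. Alternatives were each distinct joint counted once, other length limits, other trimming limits, same-kind ends, overlap within both ends, reference-matched rows, shares of all MH rows, other row limits, each sequencing run, and leaving out each library. Ku70-/- DMSO replicate 1 is not among the libraries tabulated in the study and was kept here.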

Additional observations from a re-analysis of the deposited data

Results flagged for a closer look

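The following values moved in opposite directions in 2 groups or baits, with no overlap between the libraries compared. The difference between the directions was not tested in any of them. The MH share was higher in DMSO-treated than in cycling WT cells with the SE bait (0.520 points), but lower in Ku70-/- cells with the SE bait (-12.8 points) and in WT cells with the CE bait (-0.413 points). The SE bait gave a lower share than the CE bait in WT cells (-1.13 points) and a higher one in Ku70-/- cells (5.75 points, or 3.21 without replicate 1). The WT value turned to 7.59 points counted once and to 0.180 points at 3 to 20 bp.

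Mean MH length was higher in Ku70-/- than in WT DMSO libraries with the CE bait (0.66 bp) and lower with the SE bait (-0.273 bp), but counted once the CE difference was 0.0788 bp with overlapping libraries. The GC share of the shared bases was likewise higher with the CE bait (5.15 points, but -1.57 points counted once). It was lower with the SE bait (-3.92 points, but 0.178 points among rows with at least 2 bp of overlap within both ends). The SE bait had a higher GC share than the CE bait in WT cells (4.16 points) and a lower one in Ku70-/- cells (-4.90 points). Among MH rows within 200 bp of a break site, prey ends within 10 bp of it were less frequent with the SE than with the CE bait in WT cells (-6.20 points) and more frequent in Ku70-/- cells (13.6 points). Of all MH rows these differences were -32.04 and 13.6 points.

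In cycling cells the hybrid share of near-site MH rows was higher in Ku70-/- than in WT cells with the CE bait (29.5 points) and lower with the SE bait (-43.97 points), where WT libraries held 31, 97 and 142 rows. Of all MH rows the differences were 13.2 and -27.9 points. L82-G17 went with a higher near-site hybrid share than DMSO in WT CE libraries (2.14 points) and a lower one in Ku70-/- CE libraries (-9.24 points). Distinct MH joints were fewer with L82-G17 in WT CE libraries (-91) and more in Ku70-/- CE libraries (1067, or 398 without DMSO replicate 1, which held 152). MH rows moved the same way. WT libraries held 4673, 4950 and 5930 with L82-G17 and 7604, 7211 and 7270 with DMSO. Ku70-/- libraries held 23319, 24058 and 22725 with L82-G17 and 11117, 20046 and 19346 with DMSO. The part of row number in these counts was not tested.

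From cycling to DMSO, the share of CE MH rows near a break site changed by -0.436 points in WT and 34.3 points in Ku70-/- cells. The share with under 2 bp of overlap within both ends changed by -8.08 points in WT and 3.09 points in Ku70-/- CE libraries. The share of the most frequent MH joint changed by 16.6 points in WT CE and -35.2 points in WT SE libraries, the latter from 5 to 16 distinct joints per cycling library.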

How the results depend on the processing

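No paired analysis was possible because the labels give the libraries no replicate numbers. Of 498 alternative values of differences between library means, 477 kept their direction and 21 reversed. Counting each distinct joint once reversed the L67 share in Ku70-/- SE libraries (-1.45), the SE to CE difference of the share in WT cells (7.59), the length (-0.156) with L82-G17 in Ku70-/- SE libraries, GC from WT to Ku70-/- (-1.57) and with L82-G17 in Ku70-/- (0.321) CE libraries, the hybrid share from WT to Ku70-/- SE libraries (4.45), and the site differences of Igkv1-110 (0.91) and Igkv16-104 (0.66) with the CE bait. A limit of 3 to 20 bp reversed the L82-G17 share in WT SE libraries (0.000566) and the SE to CE difference in WT cells (0.180), and ends of the same kind reversed the former (0.00220). Keeping only rows with at least 2 bp of overlap within both ends reversed the WT to Ku70-/- SE differences in length (0.255) and GC (0.178). A 5-bp limit reversed the bait trimming with L82-G17 in Ku70-/- CE libraries (-3.11). Shares of all MH rows, an alternative added after seeing the data, reversed the hybrid share from WT to Ku70-/- SE (7.41) and from cycling to DMSO Ku70-/- CE (6.28) libraries. The cause was not tested.

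Leaving out 1 library in turn gave -0.190 to 0.811 for the L67 share in Ku70-/- SE libraries, -0.169 to 0.0623 (CE) and -0.0144 to 0.123 (SE) for length and -2.08 to 1.13 (CE) and -1.03 to 0.00105 (SE) for GC with L82-G17 in Ku70-/- cells, and -1.11 to 1.54 for Igkv1-110. Site counts counted once were 1 for L82-G17 in WT CE, 0 for L67 in Ku70-/- CE, 27 for WT to Ku70-/- SE and 0 for L82-G17 in Ku70-/- SE libraries. These fits had a row limit of their own. L67 in Ku70-/- CE libraries gave 0 sites at 200 rows or with both groups at 50 rows and 2 at 1 row, and L82-G17 in Ku70-/- SE libraries 0 at 200 rows. Leaving out 1 library gave 69 to 101 (CE) and 76 to 95 (SE) sites from WT to Ku70-/-, 0 to 1 for L67 in WT CE, WT SE and Ku70-/- CE and for L82-G17 in Ku70-/- SE libraries, 0 to 3 for L82-G17 in WT SE libraries, and 0 to 12 for L82-G17 in Ku70-/- CE libraries, the 12 without DMSO replicate 3. Between the 2 sequencing runs of a library the share differed by at most 6.88 points. The 3 libraries per group and few distinct joints in cycling cells limit all comparisons.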
